A study of Drosophila melanogaster with 34 samples.

Results

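The 6 haemocyte marker genes NimC1, Pxn, Hml, crq, eater and He were followed across all arrays of a Drosophila melanogaster selection experiment. All probe sets that the platform annotation gives to these symbols were taken, which made 7 of the 18769 on the array. Pxn has a pair of them, 1640097_at and 1629847_at, and the others are 1639502_at for NimC1, 1628018_at for Hml, 1639387_s_at for crq, 1627746_at for eater and 1640654_at for He. The suffix of the crq set marks probes shared by more than 1 transcript, so its value may hold signal of other RNAs.

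The series compared larvae of 6 laboratory populations that descend from an outbred stock and had been selected for more than 300 generations. Populations E1 and E2 were bred on food with 12% ethanol (ethanol regime), M1 and M2 with part of their vials holding such food and part standard food (variable regime), and R1 and R2 on standard food alone (control regime). Flies of every population spent at least 2 generations on standard food at 25 °C before laying, and their eggs were covered for 15 hours with 18% ethanol, about 12% after dilution by the agar, or with distilled water. Newly hatched first-instar larvae were pooled, 50 to 200 per RNA sample, and RNA was extracted in 3 blocks numbered day 1, 2 and 5. The 34 arrays used here hold 17 ethanol-exposed and 17 water-exposed samples: 6 and 6 of the ethanol regime, 5 and 5 of the variable regime, and 6 and 6 of the control regime. No array of M2 ethanol on day 1 or of M1 water on day 2 was analysed here. No transgene, sorting or dissection was involved, so every value is that of a whole-larva pool.

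Haemocytes are the blood cells of insects. Most of those in a Drosophila larva are plasmatocytes, macrophage-like cells that engulf bacteria and dying cells and lay down matrix. Crystal cells carry the prophenoloxidases used in melanization, and lamellocytes appear mainly after attack by parasitoid wasps. Among the genes followed here, NimC1 (Nimrod C1) and eater encode receptors with EGF-like repeats that take part in engulfing bacteria. The product of crq (croquemort) is a scavenger receptor of the CD36 family needed for the clearance of apoptotic cells. He (Hemese) encodes a glycoprotein of the haemocyte surface. Hml (Hemolectin) encodes a large secreted clotting protein, and Pxn (Peroxidasin) a secreted peroxidase of the extracellular matrix. In pooled whole larvae, fewer haemocytes, less RNA of a gene per haemocyte and less of its RNA from other cells cannot be told apart.

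Values are log2 expression units of a probe set, so a difference of 1 is a doubling, and levels of different probe sets are not comparable. NimC1, Hml, crq, He and Pxn set 1640097_at lay at 4 or above on 34 of 34 arrays, and eater on 33 of 34. The remaining Pxn set, 1629847_at, ranged from 1.31 to 1.73, was at 4 or above on 0 of 34 arrays and was not tested. Its means were 1.49 ± 0.10 in ethanol-exposed and 1.51 ± 0.10 in water-exposed samples (SD, n = 17 each), and below, Pxn means 1640097_at. Probe sets that reached 4 on at least 5 arrays were tested, which made 6 member sets among 9729. Medians of whole arrays were within 3.89 to 4.02.

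Labels of the day 5 arrays were checked before use. The deviations of each such array from the other populations were correlated, across probe sets, with those of each population on days 1 and 2. All 4 control arrays of day 5 came closest to their own population, at r of 0.37 to 0.63. Of the 8 day 5 arrays of the ethanol and variable regimes, 7 came closest to the population of the same number in the other of these regimes, and 1, E2 water, to its own. Their r with their own population was -0.02 to 0.38. For the 14 arrays of these regimes from days 1 and 2, the outcome depended on whether day 5 entered the comparison, which was seen after the first check. Set against the means of the other 2 days, day 5 included, 9 of 14 came closest to the population of the same number in the other regime and 5 to their own. Set against the other of days 1 and 2 alone, 13 of 14 came closest to their own population, at own r of 0.26 to 0.73, and 7 of 8 control arrays did. Labels were kept as given, so group means, ranges, pair counts and single-day fits include the 8 day 5 arrays, and the fits they moved are given without them as well.

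**Figure D1:**
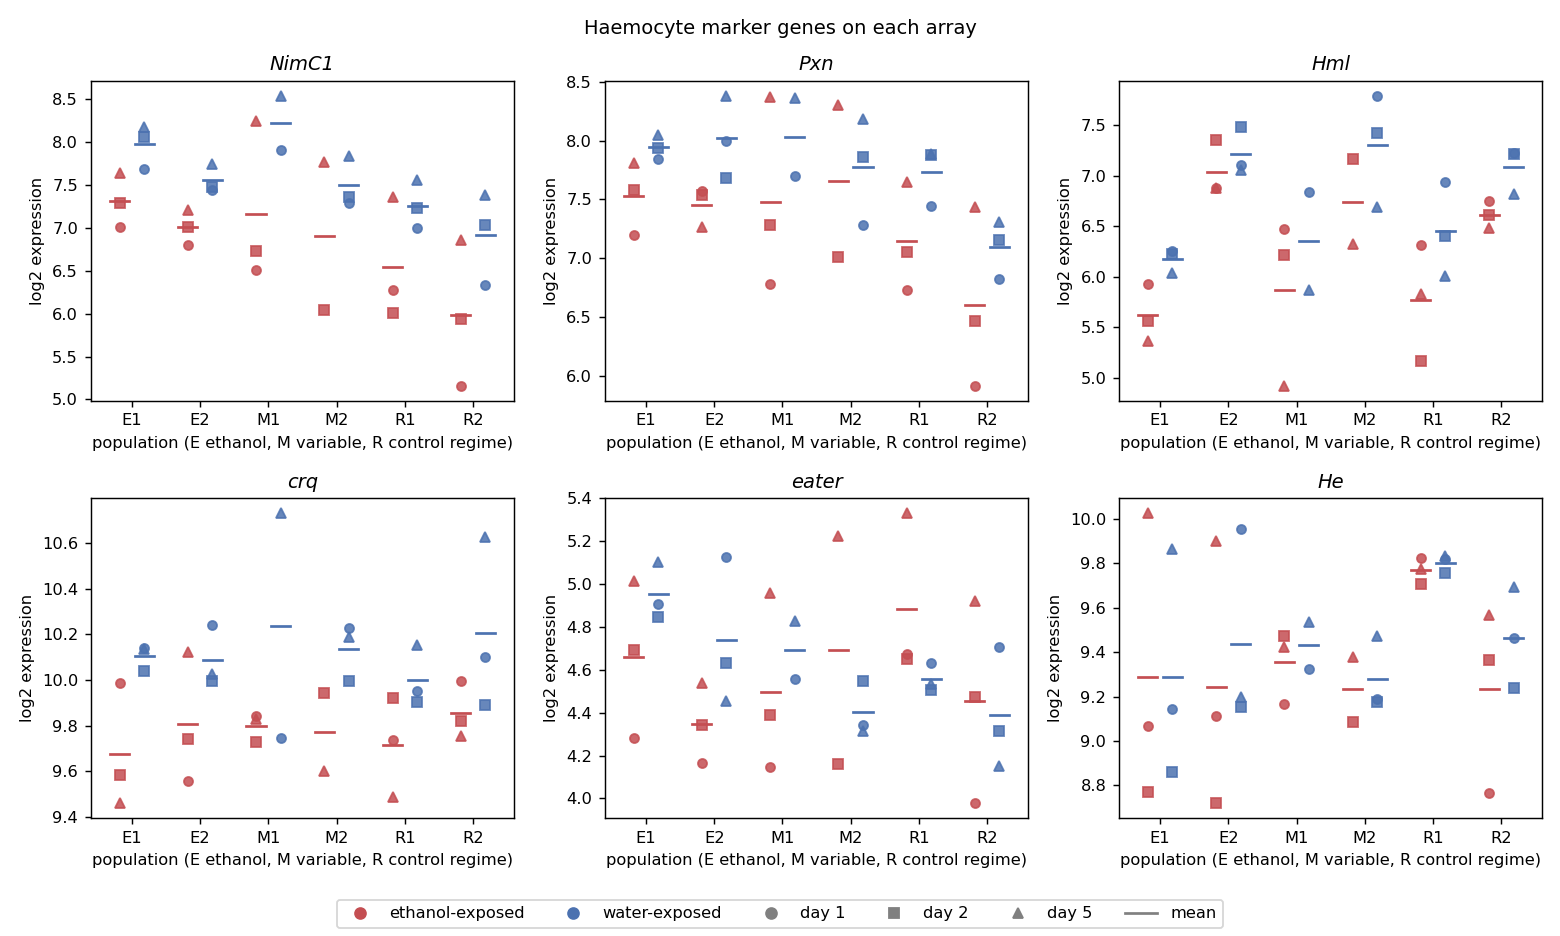
Log2 expression of the 6 genes on each of 34 arrays, by population, with ethanol-exposed samples (red) left of water-exposed samples (blue), symbols for the extraction day and lines for group means. The group means of NimC1, Pxn, Hml and crq were lower in ethanol-exposed than in water-exposed samples in 6 of 6 populations.

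Exposure to ethanol was set against water over all populations. Of the 6 genes, 4 were lower in ethanol-exposed larvae: the receptor gene NimC1, the matrix and clotting genes Pxn and Hml, and the scavenger receptor gene crq. Neither eater nor He passed the test. Among all probe sets tested, 16.0% were called lower in this comparison at an adjusted p under 0.05 in limma, a linear model fitted to every probe set with the extraction day as a term. The median change over the 6 genes was -0.41, against 0.00 over all probe sets tested. The genes were chosen with earlier results of these data known, so this contrast is a description and not a test.

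NimC1 changed most among the 6. Its lowest, median and highest values were 5.15, 6.86 and 8.24 in ethanol-exposed samples, against 6.34, 7.47 and 8.54 in water-exposed samples. The ranges of the exposures overlapped widely, since populations and days also differed. Within the 16 pairs of arrays from the same population and day, however, the ethanol sample was lower in 16, with differences of -1.40 to -0.07. The fitted change was -0.77 ± 0.11 (limma SE, adjusted p = 7.98e-06), or 1.70-fold lower in ethanol.

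Hml was likewise lower in the ethanol sample of 16 of 16 pairs, with differences of -1.25 to -0.13. Its values were 4.91, 6.32 and 7.35 (lowest, median and highest) in ethanol-exposed samples and 5.87, 6.84 and 7.79 in water-exposed samples. Here too the ranges overlapped. The fitted change of Hml was -0.47 ± 0.11 (limma adjusted p = 0.00176), 1.39-fold lower.

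Pxn had values of 5.91, 7.28 and 8.37 in ethanol-exposed samples, against 6.82, 7.86 and 8.38 in water-exposed samples. The highest values of the exposures nearly met, and the ethanol sample was lower in 13 of 16 pairs. The fitted change of Pxn was -0.48 ± 0.11 (limma adjusted p = 0.0013), also 1.39-fold lower. Leaving out day 2 ended this call, at -0.38 ± 0.15 (limma adjusted p = 0.0806).

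For crq the values were 9.46, 9.75 and 10.12 in ethanol-exposed samples and 9.75, 10.10 and 10.73 in water-exposed samples. The median of the ethanol-exposed samples lay at the bottom of the water-exposed range, and 13 of 16 pairs were lower in ethanol. The fitted change of crq was -0.35 ± 0.08 (limma adjusted p = 0.00184), 1.28-fold lower. Its call rested on day 5: without that day the change of crq was -0.16 ± 0.06 (limma adjusted p = 0.0544).

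The phagocytosis receptor gene eater, whose values lay near 4, had values of 3.98, 4.54 and 5.33 in ethanol-exposed samples, against 4.15, 4.56 and 5.13 in water-exposed samples. The ethanol sample of a pair was lower in 8 of 16. The fitted change of eater was -0.03 ± 0.11, with a 95% interval of -0.25 to 0.18 (limma adjusted p = 0.854). Without day 5, eater was called lower, at -0.30 ± 0.11 (limma adjusted p = 0.0425). Its direction was not the same under every alternative.

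He, which encodes the surface glycoprotein, had values of 8.72, 9.38 and 10.03 in ethanol-exposed samples and 8.86, 9.47 and 9.96 in water-exposed samples. Both ranges nearly coincided, although 12 of 16 pairs were lower in ethanol. The fitted change of He was -0.09 ± 0.10, with a 95% interval of -0.30 to 0.12 (limma adjusted p = 0.56).

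By population, NimC1, Pxn, Hml and crq each had a negative change in 6 of 6. Their changes spanned -0.98 in M1 to -0.55 in E2 for NimC1, -0.59 in R1 to -0.28 in M2 for Pxn, -0.68 in R1 to -0.18 in E2 for Hml, and -0.43 in E1 to -0.28 in E2 for crq. The change of crq in the variable regime rested on day 5. Without the 8 day 5 arrays its change there was -0.0071 (limma adjusted p = 0.988), and the pairs left were 0.10 in M1 on day 1 and -0.05 in M2 on day 2. For eater the sign was negative in 3 of 6 populations, E1, E2 and M1, and for He in 5 of 6. Without the 8 day 5 arrays of the ethanol and variable regimes, the same 4 genes passed, with changes of -0.96 for NimC1, -0.56 for Pxn, -0.43 for Hml and -0.24 for crq.

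**Figure D2:**
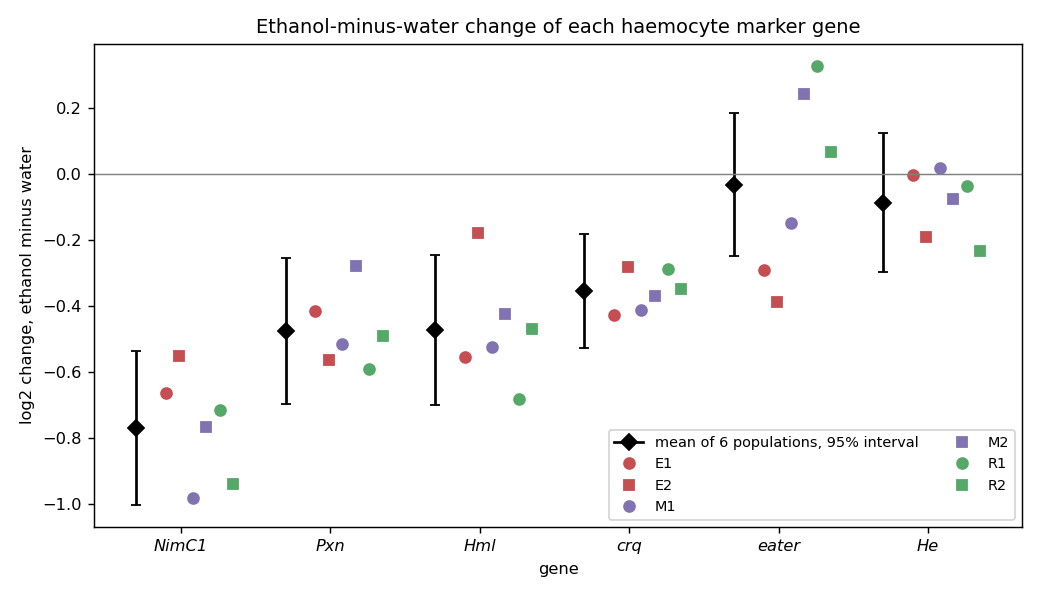
Log2 change of each gene, ethanol minus water: the mean of 6 populations with its 95% interval (black diamonds) and the change in each population (coloured circles and squares). NimC1, Pxn, Hml and crq lie below 0 in 6 of 6 populations, eater on both sides of 0.

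He and NimC1 stand next to each other on chromosome arm 2L in the RefSeq gene order, inside a run of Nimrod genes (NimB3, NimB4, NimB5, He, NimC1, Cyp28a5 and NimC2). Of this run only NimC1 was called lower on exposure. NimB3, which encodes a secreted Nimrod protein, was higher by 0.27 ± 0.10 (limma adjusted p = 0.0436). Changes were 0.03 for NimB4, -0.07 for NimB5, -0.09 for He and -0.06 for Cyp28a5, none of which passed, and NimC2 was not tested.

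Within single regimes, NimC1 was called lower on exposure in each of the 3. In the ethanol regime its lowest, median and highest values were 6.80, 7.11 and 7.64 in ethanol-exposed samples and 7.45, 7.72 and 8.17 in water-exposed samples (n = 6 each). The change was -0.61 ± 0.19 (limma adjusted p = 0.0422), and NimC1 was the only 1 of the 6 called lower there, where 3.88% of all probe sets were. Without the 8 day 5 arrays the change was -0.64 ± 0.17 (limma adjusted p = 0.0286).

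In the variable regime, the 5 ethanol-exposed samples had NimC1 values of 6.51, 6.73, 8.24, 6.05 and 7.77, against 7.91, 8.54, 7.29, 7.36 and 7.84 in the 5 water-exposed samples. Both day 5 samples, 8.24 and 7.77, stood far above the other ethanol-exposed samples. The change was -0.87 ± 0.21 (limma adjusted p = 0.0108), again the only call among the 6, against 3.34% of all probe sets called lower. Without the day 5 arrays of the ethanol and variable regimes it was -1.41 ± 0.21 (limma adjusted p = 6.29e-04).

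In the control regime, NimC1 had 5.15, 6.14 and 7.35 in ethanol-exposed samples and 6.34, 7.13 and 7.55 in water-exposed samples (n = 6 each), a change of -0.83 ± 0.19 (limma adjusted p = 0.0025). Pxn (-0.54 ± 0.18, limma adjusted p = 0.0349) and Hml (-0.58 ± 0.18, limma adjusted p = 0.0287) were also called lower, which made 3 of 6, where 10.1% of all probe sets were. All 3 control calls were lost when day 1 or day 2 was left out. The calls of NimC1 in the other regimes were lost in the same way.

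The regimes were not shown to differ in these changes. With the exposure change within a population taken as 1 value, 2 per regime, limma called 0 of 9729 probe sets for the ethanol against the control regime, where 394 had an unadjusted p under 0.05. The nearest of the 6 was eater, whose change was -0.34 ± 0.17 in the ethanol regime, 0.05 ± 0.20 in the variable regime and 0.20 ± 0.17 in the control regime. The difference between the ethanol and control regimes was -0.54 ± 0.21 (limma adjusted p = 1.00), and -0.71 ± 0.23 without the 8 day 5 arrays (limma adjusted p = 0.999). For NimC1, the corresponding difference was 0.22, with a 95% interval of -0.15 to 0.59.

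The change was also taken day by day. Fitted on each day alone, NimC1 changed by -0.93 in ethanol-exposed larvae on day 1, -0.97 on day 2 and -0.36 on day 5, and was called on each. Pxn had -0.72, -0.57 and -0.22, called on days 1 and 2. Hml had -0.40, -0.58 and -0.45, called on days 2 and 5. The call for crq came on day 5, at -0.60, against -0.21 on day 1 and -0.16 on day 2. These made 2, 3 and 3 of the 6 genes on days 1, 2 and 5, beside 3.09%, 12.0% and 5.96% of all probe sets called lower.

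Among the 6 genes, eater had the change that differed most between days. On day 1 the 5 ethanol-exposed samples had 4.28, 4.17, 4.15, 4.67 and 3.98, against a lowest, median and highest value of 4.34, 4.67 and 5.13 in the 6 water-exposed samples. On day 5 the 6 ethanol-exposed samples had 4.54, 4.99 and 5.33, against 4.15, 4.50 and 5.10 in the 6 water-exposed samples. The ethanol sample of a pair was thus lower in 4 of 5 pairs on day 1, 3 of 5 on day 2 and 1 of 6 on day 5. The ethanol-minus-water change of eater was -0.54 on day 1, -0.11 on day 2 and 0.43 on day 5, and passed on none of them alone.

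A test of the difference between days, added after the values had been seen, gave a change on day 5 that exceeded that on day 1 by 0.90 ± 0.19 for eater (limma adjusted p = 0.0722). This missed the threshold over all probe sets, of which 0.0617% (6) were called. Without E2 it passed (0.89 ± 0.19, limma adjusted p = 0.0304), and without the 8 day 5 arrays of the ethanol and variable regimes it was 1.10 (limma adjusted p = 0.136). The same difference was 0.58 ± 0.24 for NimC1 (limma adjusted p = 0.354) and -0.36 ± 0.19 for crq (limma adjusted p = 0.432). Without the 8 arrays it was 0.67 for NimC1 and -0.63 for crq, with limma adjusted p of 0.24 and 0.16.

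**Figure D3:**
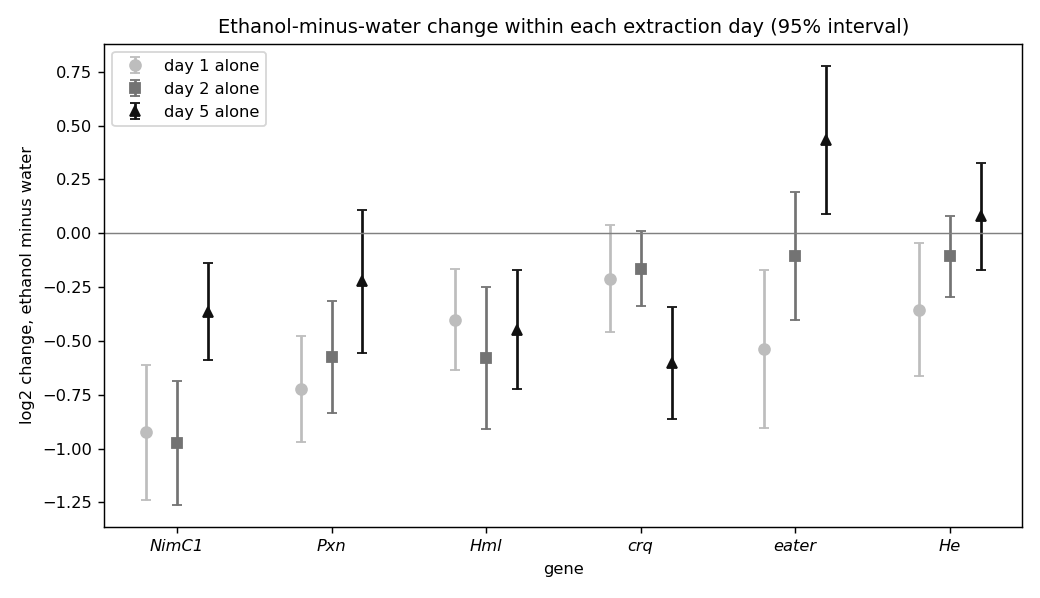
Log2 change of each gene, ethanol minus water, fitted within extraction day 1, 2 and 5 alone, with 95% intervals. NimC1 lies at -0.93, -0.97 and -0.36, while eater lies at -0.54 on day 1 and at 0.43 on day 5.

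Levels over both exposures differed by day as well. On day 5, NimC1 was higher than on day 1 by 0.88 ± 0.14 (limma adjusted p = 1.47e-05) and Pxn by 0.71 ± 0.13 (limma adjusted p = 9.53e-05), while Hml changed by -0.62 ± 0.13 (limma adjusted p = 5.94e-04). NimC1 had a lowest, median and highest value of 5.15, 7.00 and 7.91 on day 1 (n = 11), 5.93, 7.03 and 8.05 on day 2 (n = 11) and 6.86, 7.69 and 8.54 on day 5 (n = 12). Hml had 5.93, 6.84 and 7.79 on day 1, 5.16, 6.61 and 7.48 on day 2 and 4.91, 6.18 and 7.06 on day 5. All ranges overlapped, and the genes moved in opposite directions.

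He was 0.31 ± 0.12 higher on day 5 than on day 1 (limma adjusted p = 0.0466), and eater, at 0.28 ± 0.13, did not pass (limma adjusted p = 0.0826). Thus 4 of 6 were called between days 5 and 1, where 43.2% of all probe sets were, so the count says little about these genes in particular. Without the 8 arrays in question, Hml (-0.40 ± 0.18, limma adjusted p = 0.131) and He (0.16 ± 0.15, limma adjusted p = 0.471) no longer passed, while NimC1 (1.05) and Pxn (0.78) did. The call of He was lost under 10 of 15 alternatives in all. Besides the 8 arrays, these were no filter, median centring, quantile normalization, no intensity trend, and leaving out day 2, E1, M1, M2 or R2, with limma adjusted p of up to 0.471. Between days 2 and 1, 0 of the 6 and 11.2% of all probe sets were called.

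Levels across the selection regimes were compared with populations as replicates. The fitted levels of NimC1 and Pxn were lowest in the control populations, but no gene passed the test. Fitted levels of NimC1 were 7.28 and 6.92 in E1 and E2, 7.30 and 6.76 in M1 and M2, and 6.55 and 6.09 in R1 and R2. Both control populations thus lay below all others. The NimC1 difference was 0.78 ± 0.25 for ethanol minus control (limma adjusted p = 0.482) and 0.71 ± 0.25 for variable minus control (limma adjusted p = 0.668).

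Pxn likewise had its lowest levels in R1 and R2, with 7.42 and 7.42 in E1 and E2, 7.42 and 7.32 in M1 and M2, and 7.12 and 6.53 in R1 and R2. Its differences were 0.59 ± 0.20 for ethanol minus control (limma adjusted p = 0.482) and 0.54 ± 0.20 for variable minus control (limma adjusted p = 0.668). With 2 populations a regime, 0% of all probe sets were called for ethanol minus control and 0% for variable minus control, while 920 and 722 of 9729 had an unadjusted p under 0.05. When arrays were counted as replicates, which leaves out the spread between populations, NimC1 and Pxn passed in both comparisons. The share of all probe sets called in that setting is not given here. Without the 8 day 5 arrays the ethanol-minus-control difference was 0.97 for NimC1 and 0.74 for Pxn, and the variable-minus-control difference was 0.61 for NimC1 and 0.39 for Pxn. None of these passed. DNA replication genes, listed further on, had median differences of 0.34 for ethanol minus control and 0.35 for variable minus control, with 0 of 8 called, and their part in the values of NimC1 and Pxn was not tested.

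He had the opposite sign, with 9.23 and 9.28 in E1 and E2, 9.29 and 9.18 in M1 and M2, and 9.73 and 9.29 in R1 and R2. R1 alone stood above the others, and R2 lay beside them. For He, ethanol minus control was -0.25 ± 0.15 (limma adjusted p = 0.635) and variable minus control -0.27 ± 0.15 (limma adjusted p = 0.754). Without the 8 arrays, ethanol minus control was -0.39 (limma adjusted p = 0.656). Intervals for the ethanol-minus-control difference of the others were -1.33 to 1.40 for Hml, -0.22 to 0.17 for crq and -0.29 to 0.50 for eater.

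Across the 6 combinations of regime and exposure, NimC1 averaged 7.16 ± 0.29 and 7.76 ± 0.30 in ethanol- and water-exposed larvae of the ethanol regime, 7.06 ± 0.91 and 7.79 ± 0.50 in those of the variable regime, and 6.26 ± 0.77 and 7.09 ± 0.43 in those of the control regime (SD, n = 6, 6, 5, 5, 6 and 6). From high to low these were variable water, ethanol water, ethanol ethanol, control water, variable ethanol and control ethanol. In this order only the ethanol-regime pair was separated by more than the larger SD of the neighbours, and its ranges still overlapped. Hml averaged 6.33 ± 0.82 and 6.69 ± 0.59, 6.22 ± 0.82 and 6.92 ± 0.74, and 6.19 ± 0.60 and 6.76 ± 0.48 in the same groups, so that its water-exposed groups were the 3 highest and none of the neighbours differed beyond their SD. The SDs of these groups, for all 6 genes, include the spread between populations and days. They do not measure the change within pairs of the same population and day, in which Hml was lower in ethanol in 16 of 16.

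Pxn averaged 7.49 ± 0.23 and 7.98 ± 0.24 in ethanol- and water-exposed larvae of the ethanol regime, 7.55 ± 0.74 and 7.88 ± 0.42 in those of the variable regime, and 6.87 ± 0.64 and 7.42 ± 0.41 in those of the control regime. Its highest mean was that of water-exposed larvae of the ethanol regime and its lowest that of ethanol-exposed control larvae, and no neighbours in this order differed beyond their SD. For crq the means of the same groups were 9.74 ± 0.26 and 10.10 ± 0.09, 9.79 ± 0.13 and 10.18 ± 0.36, and 9.79 ± 0.18 and 10.10 ± 0.28. The 3 water-exposed groups thus lay close together, and so did the 3 ethanol-exposed groups. Values of variable-regime larvae in ethanol, the highest of the ethanol-exposed means, did not overlap those of ethanol-regime larvae in water, the lowest of the water-exposed means. For eater the means were 4.51 ± 0.31 and 4.84 ± 0.26, 4.58 ± 0.49 and 4.52 ± 0.21, and 4.67 ± 0.45 and 4.47 ± 0.21, and for He 9.27 ± 0.56 and 9.36 ± 0.44, 9.31 ± 0.17 and 9.34 ± 0.16, and 9.50 ± 0.40 and 9.63 ± 0.24. In eater and He no neighbours in the order of levels differed beyond their SD.

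Sister populations of 1 regime differed strongly in Hml. The clotting gene was lower in E1 than in E2, in M1 than in M2 and in R1 than in R2. In E1, Hml read 5.93, 5.56 and 5.36 on days 1, 2 and 5 in ethanol and 6.25, 6.22 and 6.03 in water. In E2 it read 6.88, 7.35 and 6.88 in ethanol and 7.11, 7.48 and 7.06 in water. The highest E1 value lay below the lowest E2 value, so these populations did not overlap. The E1-minus-E2 difference was -1.23 ± 0.18 (limma adjusted p = 6.27e-05), or 2.35-fold lower in E1.

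Differences for Hml were -0.96 ± 0.21 between M1 and M2 (limma adjusted p = 0.00615) and -0.74 ± 0.18 between R1 and R2 (limma adjusted p = 0.0102). M1 read 6.47, 6.21, 4.91, 6.84 and 5.87, and M2 read 7.16, 6.32, 7.79, 7.42 and 6.69, each with ethanol-exposed samples before water-exposed ones. R1 had 5.16, 6.16 and 6.94 as lowest, median and highest, against 6.48, 6.78 and 7.22 in R2. M1 and M2 overlapped, as did R1 and R2. Compared on the same day and at the same exposure, Hml was lower in the population numbered 1 in 6 of 6 comparisons of the ethanol regime, 4 of 4 of the variable regime and 6 of 6 of the control regime. Without the 8 day 5 arrays the E1-minus-E2 difference was -1.21 (limma adjusted p = 3.58e-04) and the M1-minus-M2 difference -0.89 (limma adjusted p = 0.0762). Leaving out day 2 ended the calls of Hml in the variable and control regimes, at limma adjusted p of 0.113 and 0.242.

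NimC1 ran the opposite way. It was higher in the population numbered 1 in 6 of 6, 4 of 4 and 6 of 6 such comparisons, by 0.20 to 0.58 in the ethanol regime, 0.47 to 0.70 in the variable regime and 0.07 to 1.12 in the control regime. The fitted differences were 0.36 ± 0.19 for E1 minus E2, 0.54 ± 0.21 for M1 minus M2 and 0.45 ± 0.19 for R1 minus R2, with limma adjusted p of 0.24, 0.203 and 0.161. Without the 8 day 5 arrays, E1 minus E2 was 0.33 and M1 minus M2 0.71, with limma adjusted p of 0.243 and 0.102. None passed, except that the R1-minus-R2 difference did without day 5 (0.51 ± 0.15, limma adjusted p = 0.0495) and without the 8 arrays (0.45 ± 0.14, limma adjusted p = 0.0423). Pxn was higher in R1 than in R2 by 0.59 ± 0.18 (limma adjusted p = 0.0389). This call was lost without day 1, without day 2, without E1, without the filter and without the day term (limma adjusted p = 0.294 for the last). He, the neighbour of NimC1, was also higher in R1 than in R2 in 6 of 6 comparisons. Its 6 values in R1 had a lowest, median and highest of 9.71, 9.80 and 9.83, against 8.77, 9.42 and 9.69 in R2, so that R1 lay wholly above R2. The difference in He was 0.44 ± 0.17 and did not pass (limma adjusted p = 0.128), but did without day 5 (0.57 ± 0.16, limma adjusted p = 0.0468) and without the 8 arrays (limma adjusted p = 0.041). In E1 and E2, He varied more, with SDs of 0.53 and 0.49 against 0.05 in R1 and 0.33 in R2.

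Called in either direction were 1 of the 6 genes against 11.0% of all probe sets between E1 and E2, 1 against 3.67% between M1 and M2, and 2 against 8.09% between R1 and R2. Of 9729 probe sets tested, 113 were called in all 3 sister pairs. Of these, 54 were lower in the population numbered 1 each time, 41 higher each time and 18 of mixed sign. Hml was 1 of the 54, in a count added after the values had been seen.

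**Figure D4:**
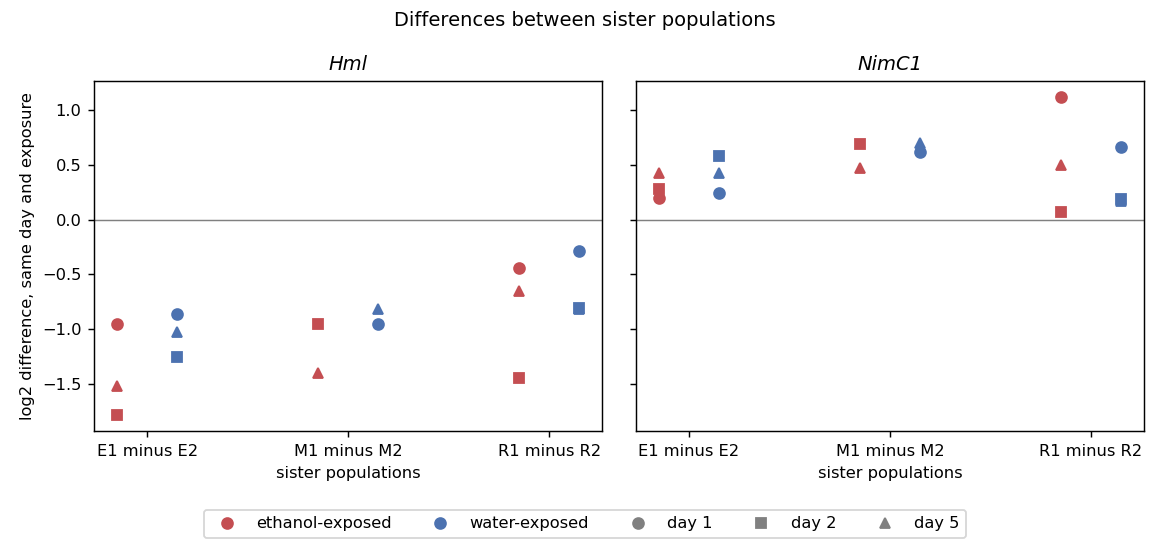
Log2 difference between sister populations (number 1 minus number 2) on the same day and at the same exposure for Hml and NimC1; red marks ethanol-exposed and blue water-exposed samples, and symbols mark the day. Hml lies below 0 in 16 of 16 comparisons and NimC1 above 0 in 16 of 16.

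The members did not move as 1 block. Over the 34 arrays, after subtraction of day means, NimC1 and Pxn had a Pearson r of 0.89. The other 14 pairs had r between -0.34 and 0.43, with Hml against NimC1 at -0.01. These r describe arrays that share populations and exposures. Between residuals, r was 0.78 for NimC1 and Pxn, 0.63 for NimC1 and eater and 0.58 for Pxn and eater. Residuals of the other pairs gave lower r, down to -0.47 for Pxn and Hml. After subtraction of day means alone, the 3 named genes most like each member were PGRP-SC2 (0.90), Pxn and Rif1 (0.88) for NimC1, and NimC1, CG7137 (0.88) and PGRP-SC2 (0.87) for Pxn. For Hml they were CG9451 (0.87), CG6870 (0.86) and CG8389 (0.83), and for crq Ccm3 (0.92), NFAT (0.89) and Ubi-p5E (0.87). For eater they were NimB4 (0.85), CG5346 (0.66) and CG13545 (0.65), and for He CG5096 (0.78), Ugt303A1 (0.78) and CG32633 (0.76). PGRP-SC2, which encodes a secreted peptidoglycan recognition protein, changed by -1.52 on exposure.

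Other haemocyte genes were counted beside the members. Over all 9729 probe sets tested, 1476 were called higher and 1561 lower on exposure, and the counts of each list are to be read beside these. Of 14 other tested genes of the Nimrod, scavenger receptor and related families, 3 were higher and 1 lower in ethanol-exposed larvae. Their median change was 0.07. The 3 were NimB2, NimB3 and NimC3, of which NimB2 and NimB3 encode secreted proteins. NimB2, a secreted Nimrod gene, rose by 0.48 ± 0.08 (limma adjusted p = 7.18e-05) and NimC3 by 0.13 ± 0.03 (limma adjusted p = 0.00108). Sr-CI, a scavenger receptor gene, changed by -0.28 ± 0.08 (limma adjusted p = 0.00899). Of 7 tested transcription factor and ligand genes that govern haemocyte fate and survival, 0 passed in limma. An unadjusted p under 0.05 was found for 2 of them, and for 3947 of all 9729 probe sets, so these 2 do not stand out. The 2 genes were Pvf1, a growth factor gene (0.20 ± 0.08, limma adjusted p = 0.0636), and srp, the GATA factor gene of blood and fat body (-0.15 ± 0.07, limma adjusted p = 0.0982).

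Among 4 tested crystal cell and lamellocyte genes, 2 were lower and 1 higher. PPO1, a crystal cell prophenoloxidase, averaged 2.84 ± 0.73 in ethanol-exposed and 4.25 ± 1.14 in water-exposed samples (SD, n = 17 each). Its change was -1.41 ± 0.21 (limma adjusted p = 7.65e-06), with the ethanol mean below the level of 4 used as a filter. PPO2 averaged 6.03 ± 0.42 in ethanol-exposed and 6.48 ± 0.68 in water-exposed samples, a change of -0.49 ± 0.13 (limma adjusted p = 0.0047). The lamellocyte marker atilla averaged 13.07 ± 0.11 in ethanol-exposed and 12.96 ± 0.14 in water-exposed samples, a change of 0.11 ± 0.03 (limma adjusted p = 0.017). Which cells gave this signal was not tested. Of 15 tested matrix and clotting genes made by haemocytes and fat body, 4 were higher and 2 lower, with a median of 0.01. They included Tg, a transglutaminase of clotting (0.26 ± 0.07), Tig, a matrix protein gene (0.28 ± 0.08), and the collagen IV gene vkg (-0.07 ± 0.02).

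Genes of other cell types were followed in the same comparison, in which 1476 of all 9729 probe sets were called higher and 1561 lower. Of the tested genes, 1 of 2 fat body genes and 4 of 8 tracheal and epidermal genes were higher, 1 of 9 muscle and 1 of 7 neuronal genes were lower, and 0 of 6 glial genes passed. All 8 tested DNA replication genes were lower, with a median of -0.56, including RnrL (-0.82), PCNA (-0.60) and Mcm5 (-0.60). Their summed level, taken on the linear scale and given as log2, was 9.54, 10.18 and 10.49 (lowest, median and highest) in ethanol-exposed and 10.35, 10.70 and 11.02 in water-exposed samples. This sum is weighted towards probe sets with high values, such as that of PCNA (mean 9.20, against 4.27 for Mcm3). The part of DNA replication genes in the change of the members was not tested. Between days 5 and 1, 7 of 7 neuronal and 5 of 6 glial genes were lower, and 0 of them higher, beside the changes of NimC1, Pxn and Hml with the day, and their part was not tested. Of all 9729 probe sets, 2201 were called lower and 2003 higher between these days.

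**Figure D5:**
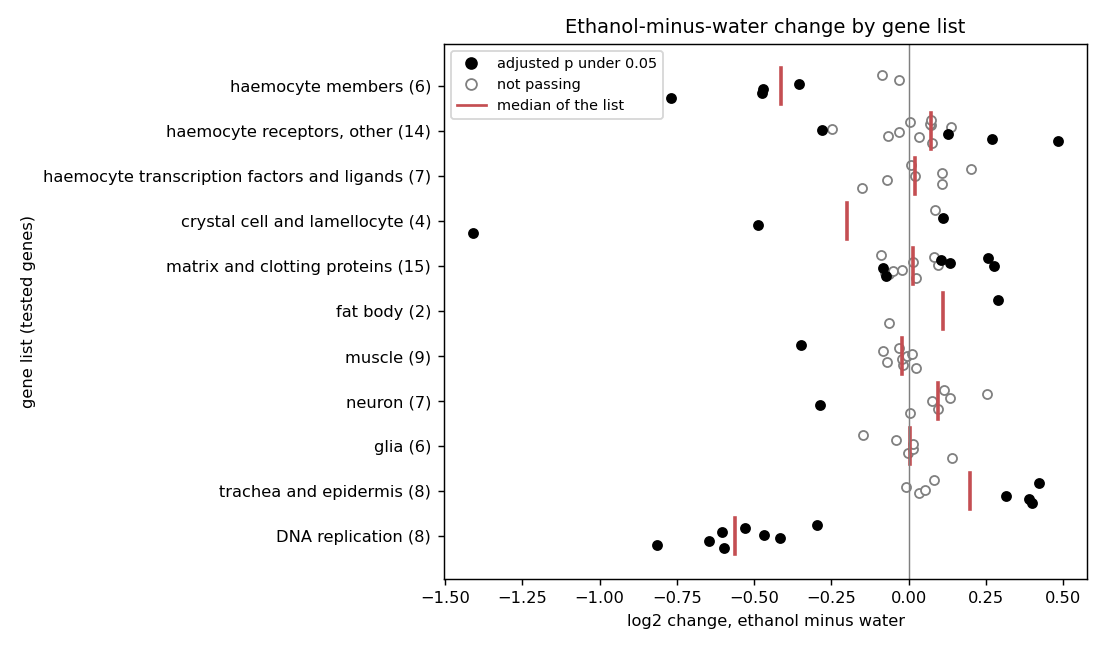
Log2 change, ethanol minus water, of every tested gene in the haemocyte lists and in lists of other cell types and of DNA replication; filled points passed at an adjusted p under 0.05, and red lines are list medians. The members have a median of -0.41 and DNA replication genes one of -0.56, and the tracheal and epidermal genes that passed lie above 0.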

How the data were processed

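Microarrays were hybridised with biotin-labelled cDNA from 35 samples, per the labels, and 34 were used here. The authors produced the deposited log2 values of each probe set with the tools GCRMA and affy, as named in the submitters' processing notes without versions. That method corrects background by probe sequence and equalises array distributions, so values near the floor depend on its background model. The number of arrays, and for regimes the number of populations, limits precision.

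Gene names came from the platform annotation, updated by RefSeq gene identifiers: 13647 list 1 gene, 402 several and 4720 none. Probe sets reaching 4 on at least 5 arrays were tested, 9729 in all. With R 4.3.3, limma 3.58.1 fitted 12 means of population and exposure plus the extraction day, with an intensity trend and two-sided Benjamini-Hochberg adjustment over all tested sets. For regimes and interactions, 6 population values were the replicates. Arrays of 1 day deviated together (mean r of 0.34, against -0.20 between days, over 561 pairs). The labels describe extraction in blocks on different days, and the number ending each title was taken as the day. No label states separate cultures behind the arrays of a population, and the p-values therefore measure spread among RNA samples, which may be technical.

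The members and gene lists were chosen with earlier results of these data known. In each list up to 3 genes with the smallest exposure p were to be named, and for likeness the 3 highest r. Fits were tested on simulated data. Alternatives were other filters, normalizations and eBayes options, no day term, days, populations or arrays left out, other replicate units and single exposures. No sequence of a promoter or protein was used here, so the motif and protein steps planned were not run.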

Additional observations from a re-analysis of the deposited data

Results flagged for a closer look

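In the 6 water-exposed arrays of the control regime, crq read 10.63 on the day 5 array of R2, and the nearest of the other 5 read 10.15. This array lay apart from its group by a Dixon test at the 95% level, the gap being 0.647 of the range of the group and above the critical value for that size of group. It was 1 of 36 groups of member values tested, and chance flags about 1 group in 20. Without this array the ethanol-minus-water change of crq was -0.32 ± 0.08 (limma adjusted p = 0.00334).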

How the results depend on the processing

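Over all populations, NimC1 was called lower on exposure under all 57 alternatives, with changes between -1.04 and -0.36. Pxn, Hml and crq kept their direction under 57 and their call under 55, 56 and 54, and the lost calls came with days left out or taken alone. Of the 6 genes 2 were called on day 1 alone. The count of called probe sets over the array was 628 on day 1 alone and 1299 on day 5 alone, and 1797 to 3099 with days or arrays left out, against 3037 in full. The change of eater turned positive without E1 (0.024), without E2 (0.036) and on day 5 alone (0.43), and lay between -0.30 and 0.16 with days or arrays left out, the lowest without day 5 (limma adjusted p = 0.0425). He gave 0.079 on day 5 alone and -0.17 to 0.026 with days or arrays left out. In the variable regime eater gave -0.31 without the 8 day 5 arrays, -0.16 without M2 and -0.31 to 0.32 with days left out, and in the control regime -0.10 to 0.47.

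The extraction day was the replicate block. Without it, 4 of the 6 genes were still called on exposure, but 0 within the ethanol, 0 within the variable and 0 within the control regime, and 0 between M1 and M2 and 0 between R1 and R2. Members called within the ethanol regime were 0 without a filter, without E1, without E2 or without R1, and 0 to 2 with days left out. Those within the variable regime were 0 without M1 or M2 and 0 to 2 with days left out. Those within the control regime were 1 without R1, 0 without R2 and 0 to 3 with days left out. Between M1 and M2 they were 0 without the 8 day 5 arrays and 0 to 1 with days left out, and between R1 and R2 they were 1 without a filter or without E1, 4 without the 8 arrays and 0 to 4 with days left out. Between days 5 and 1, 2 were called without the 8 arrays, and between days 2 and 1, 1 without day 5. For the exposure change between days 5 and 1, 2 were called without E2. With arrays as replicates, 2 were called for ethanol minus control and 2 for variable minus control. The share of all probe sets called in the same setting is not given beside any of these counts of members. For exposure, the count over the array itself moved with the setting, as given above. The counts of members therefore show how the calls depend on the setting, and say little about these genes in particular. Where a mean level of 6 or more was required, eater was not tested. Causes were not tested, beyond there being fewer arrays where some were left out.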
